A study of Mus musculus with 3 samples.

Results

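B lymphoid nuclei were a small class in nuclei prepared from mouse hearts, with 59 members among 6553 barcodes that passed the quality limits in 2 libraries. They were chosen by measured values. A member had at least 3 fragments over the bodies plus 2 kb upstream of 10 marker genes (Cd79a, Cd79b, Ms4a1, Pax5, Fcrl1, Pou2af1, Ccr6, Fcrla, Cd22 and Blk), and the share of its fragments on them was at least 5 times the share in the whole vehicle file. A barcode passed with at least 1000 unique fragments on chromosomes 1 to 19 and X and an enrichment of fragment ends at transcription start sites of at least 4. Wild-type (WT) mice had been given sunitinib, a cancer drug that inhibits receptor tyrosine kinases, or vehicle, and single-nucleus multiome libraries, which read RNA and open chromatin of the same nucleus, were made from their snap-frozen hearts. The sunitinib library gave 29 members and the vehicle library 30. Each group is 1 library, the number of hearts behind it is not stated, and the titles carry 3 months without saying whether this is an age or a treatment time. The RNA arm and a library of sunitinib with Yoda1, an activator of the channel PIEZO1, were not analysed here.

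B lymphocytes carry the B cell receptor, a membrane antibody that signals through its partners CD79A and CD79B, and they present antigen on MHC class II. Their identity is held by transcription factors such as EBF1, PAX5 and the octamer factors with their partner POU2AF1. The mouse heart is known to hold B cells, many of them inside its vessels, and a whole-heart preparation takes in blood and tissue B cells alike. In the ATAC assay a transposase cuts open chromatin, so each sequenced fragment marks accessible DNA in 1 nucleus.

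The sunitinib file held 23653823 unique fragments and the vehicle file 18704581, and 3857 and 2696 of their barcodes passed. B nuclei had a median of 2757 fragments under sunitinib (1087 to 5352) and 2310 under vehicle (1100 to 17989), against 2364 and 2156 in the other nuclei of the same libraries. Of their fragments, 26% and 27.7% lay within 1 kb of a start site, against 23.3% and 22.5% in the other nuclei. The libraries shared 22 passing barcode sequences, 0 of them in a B nucleus. Intervals given below are 95% intervals for counting error only. With 1 library per group, no difference between sunitinib and vehicle has a replicate check, and the nuclei of a library are not replicates.

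The marker genes chose the nuclei, so their values are a description. A B nucleus carried a median of 4 marker fragments under sunitinib (3 to 11) and 4 under vehicle (3 to 30). Their share was a median of 8.42 times the share in the vehicle file under sunitinib and 8.98 times under vehicle. Pax5, the factor that holds B cell fate, gave 65 fragments in 24 sunitinib nuclei and 56 in 23 vehicle nuclei. Blk, a kinase at the B cell receptor, gave 15 fragments in 11 sunitinib nuclei and 20 in 14 vehicle nuclei. The other markers were sparse in both libraries, and counts are not comparable between genes of unlike length. The chemokine receptor gene Ccr6 gave 11 fragments under sunitinib and 14 under vehicle, and the octamer co-activator gene Pou2af1 gave 10 and 14. The receptor partners Cd79a and Cd79b gave 4 and 6 fragments under sunitinib, against 4 and 3 under vehicle. Cd22, an inhibitory lectin, gave 7 under sunitinib and 4 under vehicle. The Fc receptor-like genes Fcrl1 and Fcrla gave 8 and 4 under sunitinib, against 13 and 13 under vehicle. Ms4a1, which encodes CD20, gave 1 fragment under sunitinib and 12 in 9 nuclei under vehicle.

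Many members lay close to the limits. Exactly 3 marker fragments were found in 12 sunitinib and 12 vehicle members, and a share under 6 times in 5 and 4. Just outside, 89 sunitinib and 45 vehicle barcodes had at least 3 marker fragments at a share under 5 times, the highest at 4.87 and 4.62 times. These were deep barcodes, with median totals of 10514 and 11810 fragments. A further 40 and 25 barcodes had 2 marker fragments at a share of at least 5 times. One vehicle member held 17989 fragments, which is 19.3% of all fragments in vehicle B nuclei. Leaving out this deepest nucleus is an alternative chosen after seeing the data. Its values are given where the interval of a ratio that excludes 0 then includes 0, or where a ratio or a count of genes moves by over 1.5 times.

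**Figure D1:**
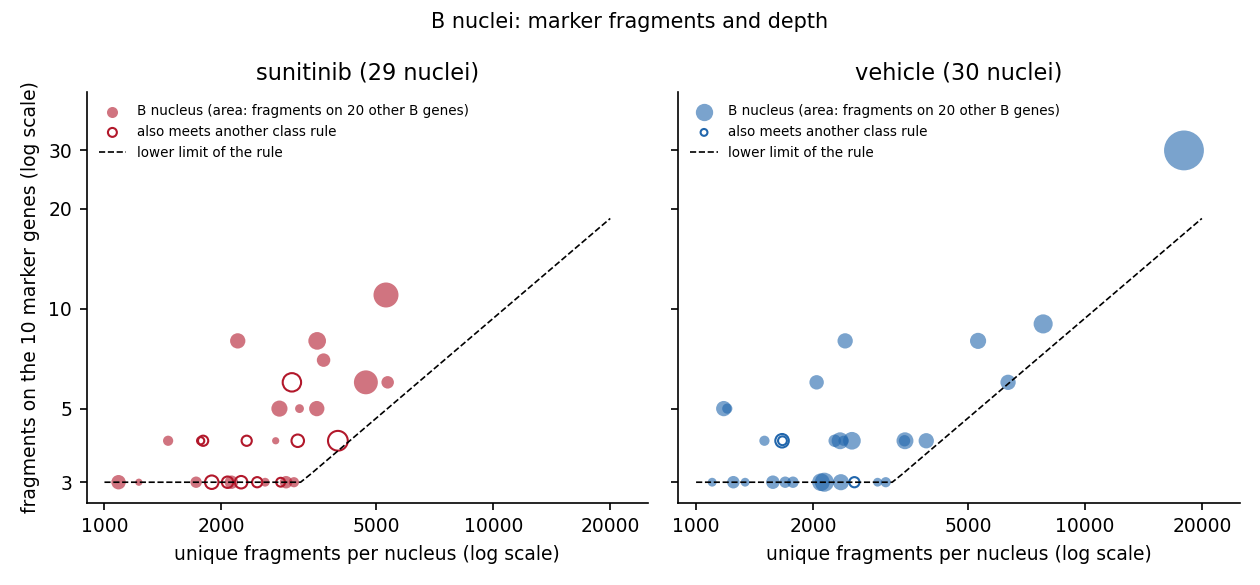
Unique fragments per nucleus (horizontal, log scale) and fragments on the 10 marker genes (vertical, log scale) for the 29 sunitinib (left) and 30 vehicle (right) B nuclei; the area of a point grows with the fragments on 20 other B cell genes, open points also met the rule of another cell class, and the dashed line is the lower limit of the rule. Many points sit on 3 fragments, and 1 vehicle nucleus with 17989 fragments lies far to the right of the others.

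B nuclei made up 0.752% of passing barcodes under sunitinib (29 of 3857) and 1.11% under vehicle (30 of 2696), with exact Clopper-Pearson intervals of 0.504 to 1.08% and 0.752 to 1.58%. The log2 ratio of sunitinib over vehicle was -0.57 (-1.35 to 0.22), an interval that includes 0. The sunitinib library also held 612 nuclei that met the same rule with T cell markers, against 91 in the vehicle library. Without those, B nuclei were 0.77% of passing barcodes under sunitinib (25 of 3245) and 1.11% under vehicle (29 of 2605). Without members that also met the rule of another class they were 0.467% of passing barcodes under sunitinib (18 of 3857) and 1% under vehicle (27 of 2696), a log2 ratio of -1.10 (-2.05 to -0.19). Among the 8 alternatives computed, the interval of this ratio lay below 0 under that restriction only. In barcodes under 1000 fragments, from which no member was drawn, the 10 markers took 203 fragments per 1000000 fragments of the same barcodes (FPM) under sunitinib and 228 under vehicle. The ratio of these levels was -0.17 on the log2 scale (-0.25 to -0.08). For the 20 other B genes described next it was -0.02 (-0.07 to 0.03), an interval that includes 0.

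The label was set beside 20 further B cell genes. Their list was chosen with earlier results of these data known, so it is no independent check of the label. The rule did not count these genes, called other B genes below. They took 1906 (1617 to 2232) FPM in sunitinib B nuclei and 2271 (1976 to 2599) in vehicle B nuclei, against 698 and 686 in the other nuclei of those libraries. The log2 ratio of B over other nuclei was 1.45 (1.21 to 1.68) under sunitinib and 1.73 (1.52 to 1.93) under vehicle. Nuclei with 0 marker fragments stood at 697 under sunitinib and 671 under vehicle, and the deep barcodes with 3 or more marker fragments at a share under 5 times stood at 710.2 and 714. Members with exactly 3 marker fragments were at 1371 (959.9 to 1897) under sunitinib and 2178 (1626 to 2856) under vehicle, and those with at least 4 at 2165 (1792 to 2592) and 2304 (1961 to 2690). T cell genes stood at 761 FPM in the sunitinib members with exactly 3 and 330.2 in those with at least 4, and at 461 and 331 in the vehicle members. The part of T cell DNA in the lower value of the sunitinib members was not tested. Barcodes with 2 marker fragments at a share of at least 5 times, which the rule leaves out, reached 1031 under sunitinib and 1428 under vehicle. At least 1 fragment on the other B genes was found in 26 of 29 sunitinib and 30 of 30 vehicle members. This held for 76.4% and 72.1% of the other nuclei. At least 3 of the other B genes were seen in 16 sunitinib and 18 vehicle members. A member showed a median of 2 different markers under sunitinib (1 to 6) and 3 under vehicle (1 to 7). The sunitinib members with 0 fragments on the other B genes held 8, 8 and 2 fragments on cardiomyocyte genes. Cardiomyocyte genes had 0 fragments in 18 sunitinib and 18 vehicle members. The part of cardiomyocyte DNA in the B nuclei was not tested.

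**Figure D2:**
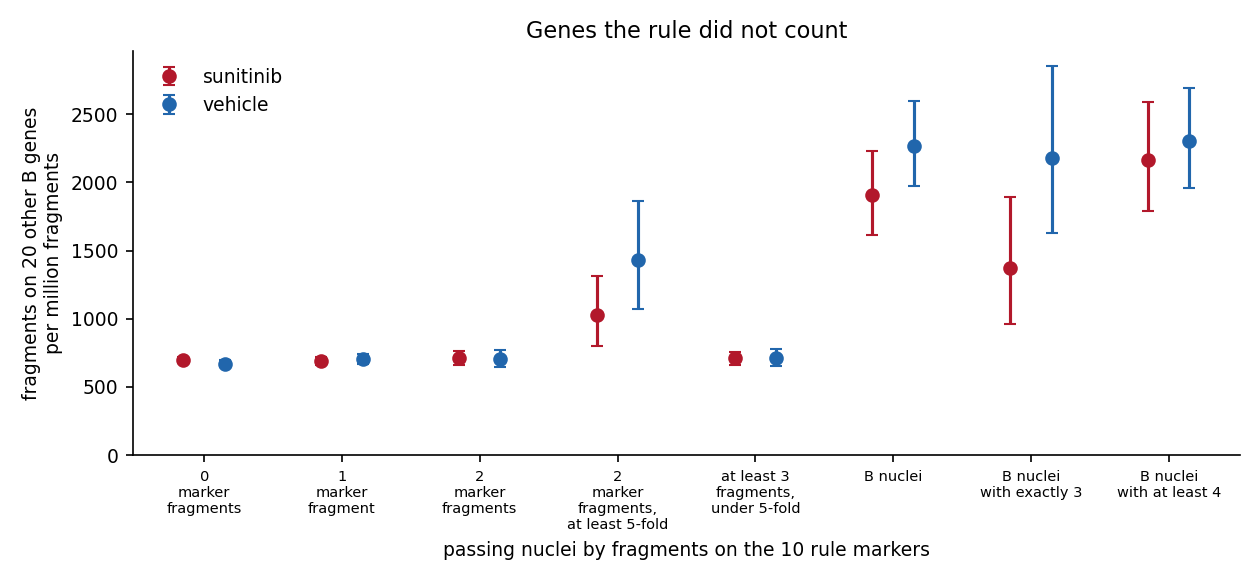
FPM on the 20 other B genes (vertical) for passing nuclei grouped by their fragments on the 10 rule markers, in the sunitinib (red, left of each pair) and vehicle (blue) libraries; bars are 95% Poisson intervals of the summed counts, and the group with 2 fragments includes its subset at a share of at least 5 times. B nuclei lie at 1906 and 2271, against 697 and 671 in nuclei with 0 marker fragments.

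Of the other B genes, 17 of 20 were at least 2-fold higher in B nuclei than in other nuclei with both libraries summed, against 9.25% of all protein-coding genes with a fragment. The interval lay above 0 for 12, against 6.12% of all genes, and below 0 for 0, against 3.34%. These shares of all genes include genes with few fragments. Of 575 genes with enough fragments, observed or expected, 196 had an interval above 0 and 138 an interval below 0. Cd72, an inhibitory co-receptor, gave 61.9 and 96.4 FPM in sunitinib and vehicle B nuclei, against 11.6 and 13 in the other nuclei (log2 2.78, 1.84 to 3.50). The deepest vehicle nucleus held 6 of the 9 vehicle fragments, and without it the ratio over other nuclei was lower (log2 2.16, 0.85 to 3.08). Fcmr, the receptor for IgM, gave 49.5 and 75 FPM in sunitinib and vehicle B nuclei, against 10.2 and 8.98 in the other nuclei (log2 2.76, 1.67 to 3.57). Bcl11a, a factor needed for B cell development, gave 235 and 225 FPM in sunitinib and vehicle B nuclei, against 37.4 and 34.7 in the other nuclei (log2 2.68, 2.16 to 3.12). These 3 genes stood higher in the B nuclei of each library. Bank1, an adaptor of the B cell receptor, had a log2 ratio of 2.56 (2.05 to 2.99) over 16 sunitinib and 25 vehicle fragments. Blnk, a linker below the kinase SYK, had 10 and 16 fragments (log2 2.52, 1.86 to 3.06). Siglecg, an inhibitory lectin, had 5 and 2 (log2 3.60, 2.14 to 4.62), and Tnfrsf13c, the receptor for the survival factor BAFF, had 2 and 4 (log2 3.16, 1.57 to 4.23). Ebf1 had the most fragments of the 20, 33 and 68, but a log2 ratio of only 1.04 (0.73 to 1.31), and it stood at 268 and 309.8 FPM in the other nuclei. Vpreb3 had 0 in both libraries, where 0 fragments allows up to 17.2 FPM by 3 counts, above the 6.49 FPM of the other nuclei.

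Promoter windows of 17 of the other B genes gave a larger ratio than the whole genes of all 20, so the sets are unlike. Without Ebf1, a choice made after seeing the data, the whole-gene log2 ratio was 1.80 under sunitinib and 2.04 under vehicle. Windows from 250 bases before to 50 after the start, known for 17 of the other B genes (22 windows, RefSeq, build GRCm38.p6), held 38 distinct fragments of B nuclei, or 218 FPM against 33.9 in other nuclei. The log2 ratio was 2.50 (1.70 to 3.19) under sunitinib and 2.98 (2.26 to 3.62) under vehicle. Over all 32585 promoter windows it was 0.22 (0.20 to 0.24). The Cd72 promoter (chr4:43454577-43454876, minus strand) was open in 3 sunitinib and 3 vehicle B nuclei and in 24 other nuclei. The Fcmr promoter (chr1:130865527-130865826, plus strand) was open in 2 sunitinib and 2 vehicle B nuclei and in 4 other nuclei, and that of Bank1 (chr3:136326017-136326316, minus strand) in 1 sunitinib and 2 vehicle B nuclei and in 23 other nuclei. For 2 of the rule's own markers the counts are a description: the Fcrl1 promoter (chr3:87376137-87376436, plus strand) was open in 1 sunitinib and 3 vehicle B nuclei and in 3 other nuclei, and that of Cd22 (chr7:30878979-30879278, minus strand) in 0 sunitinib and 2 vehicle B nuclei and in 4 other nuclei. These promoters are shown 5′ to 3′ on the gene's strand because they were open in B nuclei and hold letters of a motif known for a B cell factor. Capitals mark matches on either strand to GAGGAAGT (PU.1), TCCCNNGGG (EBF) or CAGGTG (an E-box known for E2A).
Cd72: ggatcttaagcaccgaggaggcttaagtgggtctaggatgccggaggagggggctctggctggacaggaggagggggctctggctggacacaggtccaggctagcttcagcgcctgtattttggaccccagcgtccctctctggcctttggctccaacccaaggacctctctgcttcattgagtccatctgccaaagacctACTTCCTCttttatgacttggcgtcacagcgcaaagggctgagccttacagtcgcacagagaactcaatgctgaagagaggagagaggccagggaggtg
Fcmr: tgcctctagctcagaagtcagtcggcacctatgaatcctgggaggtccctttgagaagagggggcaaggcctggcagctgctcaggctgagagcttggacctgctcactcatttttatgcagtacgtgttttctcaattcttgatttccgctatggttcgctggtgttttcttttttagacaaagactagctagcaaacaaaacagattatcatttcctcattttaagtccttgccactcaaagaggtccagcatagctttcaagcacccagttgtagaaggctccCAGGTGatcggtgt
Bank1: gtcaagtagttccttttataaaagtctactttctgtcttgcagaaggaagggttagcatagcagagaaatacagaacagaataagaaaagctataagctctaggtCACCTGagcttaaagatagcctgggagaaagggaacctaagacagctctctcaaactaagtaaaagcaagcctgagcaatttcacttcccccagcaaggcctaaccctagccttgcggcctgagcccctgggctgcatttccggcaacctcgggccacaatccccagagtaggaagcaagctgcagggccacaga
Fcrl1: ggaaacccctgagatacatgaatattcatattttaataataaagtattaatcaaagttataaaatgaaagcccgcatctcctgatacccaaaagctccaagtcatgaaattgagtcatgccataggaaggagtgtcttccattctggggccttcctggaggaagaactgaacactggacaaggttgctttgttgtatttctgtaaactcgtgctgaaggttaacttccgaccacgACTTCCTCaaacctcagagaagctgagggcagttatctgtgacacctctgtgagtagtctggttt
Cd22: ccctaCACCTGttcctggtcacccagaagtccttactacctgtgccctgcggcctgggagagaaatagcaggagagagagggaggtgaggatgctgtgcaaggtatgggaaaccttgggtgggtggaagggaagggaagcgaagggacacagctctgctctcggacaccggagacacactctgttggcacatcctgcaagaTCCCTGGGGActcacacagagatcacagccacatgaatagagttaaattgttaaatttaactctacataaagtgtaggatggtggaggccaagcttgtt
The PU.1 letters begin 49 bases before the start in Cd72 and 15 before it in Fcrl1. The E-box begins 145 bases before the start in Bank1, 36 after it in Fcmr and 245 before it in Cd22. The EBF letters of Cd22 match in 2 overlapping frames, 49 and 48 bases before the start. Of the 30 windows of marker and other B genes, PU.1 letters were in 4 (13.3%, against 3.22% of all windows), E-boxes in 12 (40%, against 20.3% of all windows), the octamer ATGCAAAT in 3 (10%, against 1.75% of all windows) and EBF letters in 1 (3.33%, against 6.6% of all windows). A match is a string of letters, not a site shown to be bound.

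Grouping all promoters by motif separated B nuclei little, with each fragment counted once per group. The share of promoter fragments on promoters with TGTGGTTT, a RUNX motif, had a log2 ratio of B over other nuclei of 0.23 (0.07 to 0.40). For PU.1 letters it was 0.13 (0.04 to 0.23), or 0.10 (-0.00 to 0.21) without the deepest nucleus. For the E-box it was 0.07 (0.03 to 0.12) and for CCGGAAGT, an ETS motif, 0.09 (0.04 to 0.14). For EBF letters it was 0.03 (-0.03 to 0.09) and for the octamer 0.06 (-0.09 to 0.21), with intervals that include 0. For the NF-κB letters GGGACTTTC it was -0.26 (-0.61 to 0.06), also with 0 inside, over 31 sunitinib and 45 vehicle fragments. Under sunitinib alone the intervals include 0 for RUNX (0.08, -0.19 to 0.34), PU.1 (0.06, -0.09 to 0.21) and ETS (0.06, -0.02 to 0.14). Under vehicle these were 0.37 (0.15 to 0.58), 0.19 (0.06 to 0.315) and 0.12 (0.05 to 0.20). Nuclei of the T cell rule had log2 ratios of 0.17 (0.11 to 0.22) for RUNX and 0.06 (0.02 to 0.09) for PU.1. Theirs were 0.12 (0.11 to 0.14) for the E-box and 0.09 (0.08 to 0.11) for ETS, so these motifs were not particular to B nuclei. In all, 16 motifs were computed. For GAAACTGAA, an ISRE motif, the ratio was 0.25 (-0.004 to 0.50) over both libraries, or 0.28 (0.004 to 0.54) without the deepest nucleus. It was 0.55 (0.20 to 0.89) under sunitinib, over 72 fragments, and -0.03 (-0.42 to 0.34) under vehicle, over 60. In nuclei of the T cell rule it was 0.02 (-0.07 to 0.11).

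The antigen receptor loci, which the rule did not count, differed by locus. Over the immunoglobulin lambda light chain locus (chr16:19061618-19260859) B nuclei had 173 FPM under sunitinib and 289 under vehicle, against 18.7 and 18 in the other nuclei. The log2 ratios were 3.21 (2.32 to 3.98) and 4.01 (3.36 to 4.61). Its 41 fragments came from 20 B nuclei, 12 of them from 1 nucleus, and over both libraries the ratio was 3.67, or 3.33 without the deepest nucleus. Over the kappa light chain locus (chr6:67555497-70726966) B nuclei had 631 and 1007, against 258 and 258, with log2 ratios of 1.29 (0.87 to 1.69) and 1.96 (1.65 to 2.26). A kappa fragment was found in 44 of 59 members, over a locus of 3171470 bases, and the share of other nuclei with such a fragment is not given here. Both light chain loci were thus higher in the B nuclei of each library. Over the heavy chain constant genes (chr12:113254830-113422730) B nuclei had 148 and 75, against 36 and 35, with log2 ratios of 2.05 (1.08 to 2.86) under sunitinib and 1.10 (-0.23 to 2.16) under vehicle, where the interval includes 0. Taken gene by gene, Ighm, the constant gene of IgM, had 4 sunitinib and 5 vehicle fragments (log2 3.58, 2.34 to 4.50). Ighd had 1 and 1, and Igha 1 and 0. The constant genes of class-switched IgG and IgE (Ighg1, Ighg2b, Ighg2c, Ighg3 and Ighe) had 0 fragments in both libraries, which allows up to 17.2 FPM for each gene.

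The heavy chain variable segments did not follow the light chains. B nuclei had 384 FPM there under sunitinib and 204 under vehicle, against 448 and 288 in the other nuclei, and the log2 ratios were -0.22 (-0.78 to 0.28) and -0.50 (-1.24 to 0.14). Over both libraries B nuclei stood at 287 FPM, nuclei of the T cell rule at 914 and the remaining nuclei at 339.8. Over the T cell receptor alpha and delta segments these levels were 229.7, 1073 and 299, and over the beta locus 103, 506 and 143. B nuclei thus stood below the nuclei of the T cell rule at both T cell receptor loci, and their log2 ratios over the remaining nuclei were -0.38 (-0.87 to 0.07) and -0.46 (-1.22 to 0.20), with intervals that include 0.

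**Figure D3:**
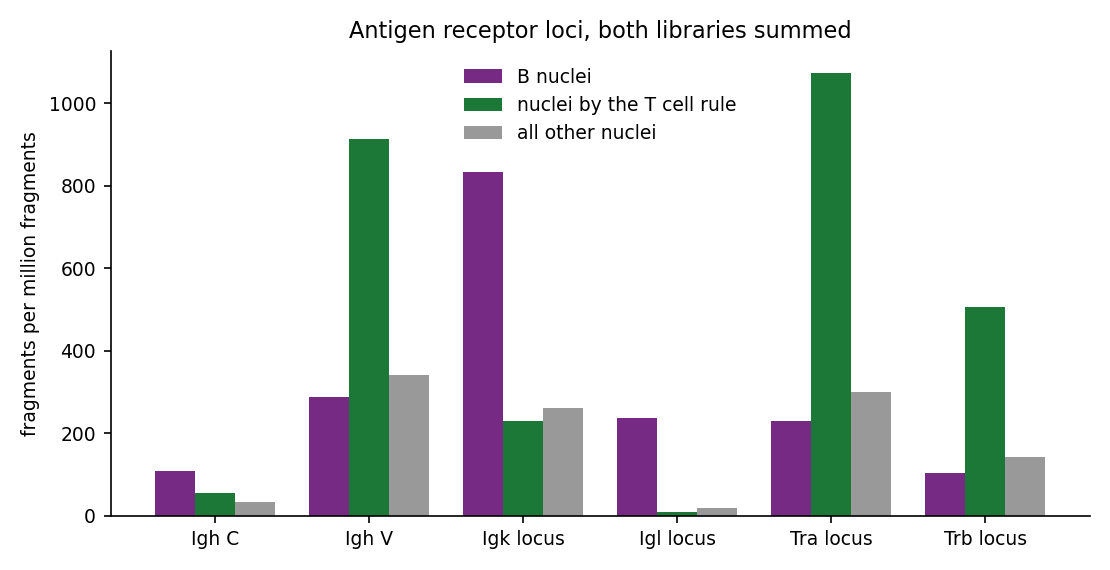
FPM (vertical) over antigen receptor loci (horizontal; C constant genes, V variable segments) in B nuclei (purple), nuclei of the T cell rule (green) and all other nuclei (grey), both libraries summed; bars are totals of the nuclei, with no error bar. B nuclei are highest at the heavy chain constant genes and both light chain loci, and nuclei of the T cell rule at the heavy chain variable segments and the T cell receptor loci.

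Genes of antigen presentation and of B cell receptor signalling stood higher in the B nuclei of each library. The 13 genes of the MHC class II list, which includes costimulatory ligands, took 829 FPM in sunitinib and 1275 in vehicle B nuclei, against 328 and 325 in the other nuclei. Their log2 ratios were 1.34 (0.97 to 1.69) and 1.97 (1.69 to 2.24). Nuclei of the rule with myeloid markers, a class also known to present antigen, had 758 under sunitinib and 720.3 under vehicle. The interval lay above 0 for 11 of the 13, against 6.12% of all genes. That share again includes genes with few fragments, and it was 196 of 575 among genes with enough fragments. Ciita, the master regulator of class II genes, had 11 sunitinib and 14 vehicle fragments (log2 2.26, 1.60 to 2.81). Cd86, a costimulatory ligand, had 11 and 9 (log2 2.57, 1.81 to 3.18). H2-Eb1, a class II beta chain, had 5 and 15 (log2 2.39, 1.63 to 3.00). H2-DMa, which helps to load peptides, had 12 and 11 (log2 0.19, -0.50 to 0.75). Of 18 genes of receptor signalling the interval lay above 0 for 14 and below 0 for 0, against 6.12% and 3.34% of all genes. The list took 2600 and 3246 FPM in B nuclei, against 1241 and 1118 in the other nuclei. It also stood above the other nuclei in those of the T cell rule (1668 and 1754) and of the myeloid rule (1623 and 1502). Prkcb, a protein kinase C, had 28 and 44 fragments (log2 1.35, 0.98 to 1.68), and Pik3ap1, an adaptor for PI3-kinase, 16 and 36 (log2 2.29, 1.85 to 2.68). Vav2, an exchange factor, had 24 and 28 (log2 1.0, 0.56 to 1.38), and the phospholipase gene Plcg2 20 and 22 (log2 1.97, 1.47 to 2.39). Of 8 inhibitors of the receptor 5 had an interval above 0 (all genes 6.12%), among them Inpp5d, the lipid phosphatase SHIP1, with 18 and 29 fragments (log2 1.70, 1.24 to 2.11).

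Lists of transcription factors, survival genes and homing genes were measured next. The share of all genes with an interval above 0 is 6.12%, but it includes genes with few fragments. Of the 575 genes with enough fragments, observed or expected, 196 had an interval above 0 and 138 an interval below 0. Genes with many fragments, such as the leading factors below, are to be read against these counts. A set of genes matched to these lists by fragments was not tested. Of 18 B cell factors 10 had an interval above 0, and the list stood at log2 0.68 (0.51 to 0.86) under sunitinib and 0.94 (0.78 to 1.09) under vehicle. Irf4, a factor of activation and plasma cells, had 13 and 9 fragments (log2 2.46, 1.74 to 3.04). Bach2, which holds back plasma cell differentiation, had 41 and 62 (log2 0.79, 0.49 to 1.06), and Nfatc1, a factor below calcium signalling, 33 and 37 (log2 1.07, 0.70 to 1.41). Ets1, which T cells also carry, had 25 and 35 (log2 0.24, -0.17 to 0.59). The list of BAFF signalling and survival stood at 0.70 (0.36 to 1.01) and 0.77 (0.47 to 1.06), with an interval above 0 for 5 of 12 genes. Of these, Bcl2, an inhibitor of cell death, had 25 and 37 fragments (log2 1.26, 0.86 to 1.61). The homing list stood at 0.96 (0.55 to 1.34) and 1.73 (1.38 to 2.05), with an interval above 0 for 7 of 11 annotated genes. It took 681 and 846 FPM in sunitinib and vehicle B nuclei, against 350 and 256 in the other nuclei, so both levels differ between the libraries. Cxcr5, which guides B cells to follicles, had 7 and 17 fragments (log2 1.49, 0.82 to 2.05), and the integrin gene Itga4 9 and 11 (log2 1.75, 0.99 to 2.35). These lists share members with the other B genes and with each other.

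Lists for B cell stages differed in their ratios. Follicular genes took 384 and 686 FPM in sunitinib and vehicle B nuclei, against 253 and 227, with log2 ratios of 0.60 (0.04 to 1.11) and 1.60 (1.21 to 1.96). Marginal zone genes stood at 0.69 (0.21 to 1.12) and 1.02 (0.63 to 1.39). Among them Dtx1, a regulator of Notch signalling, had 6 and 16 fragments (log2 2.20, 1.49 to 2.78), and the receptor gene Notch2 8 and 20 (log2 0.43, -0.19 to 0.94). Genes of pro-B and pre-B cells stood at -0.15 (-0.67 to 0.33) and 0.57 (0.06 to 1.05), and under vehicle at 0.36 (-0.28 to 0.92) without the deepest nucleus. The other nuclei had 481 FPM on this list under sunitinib and 259 under vehicle, so the 2 ratios have unlike denominators. Between the B nuclei of the 2 libraries the log2 ratio of sunitinib over vehicle was 0.17 (-0.55 to 0.88). The recombinase genes Rag1 and Rag2 had 1 and 1 fragments under sunitinib and 1 and 2 under vehicle, and the surrogate light chain genes Vpreb2 and Igll1 had 0 in both libraries. Nuclei of the T cell rule had 1098 and 1015 FPM on the same precursor list, against 433 and 386 in B nuclei. The other nuclei include 608 of these T cell rule nuclei under sunitinib and 90 under vehicle. Germinal centre genes stood at 0.40 (0.05 to 0.74) over both libraries, or 0.32 (-0.06 to 0.69) without the deepest nucleus. Plasma cell genes stood at 0.51 (0.08 to 0.90), or 0.39 (-0.08 to 0.82) without that nucleus. Of their 52 fragments, 22 lay on Irf4, while Prdm1, which drives plasma cell differentiation, had 6 and 7 (log2 -0.34, -1.30 to 0.39). B1 cell genes stood at 0.30 (-0.12 to 0.70).

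Markers of other cell types were measured in the same nuclei. Endothelial genes took 235 and 589 FPM in sunitinib and vehicle B nuclei, against 838 and 888 in the other nuclei, with log2 ratios of -1.83 (-2.57 to -1.19) and -0.59 (-1.0 to -0.21). Cardiomyocyte genes stood at -0.21 (-0.68 to 0.23) and -1.15 (-1.75 to -0.61), and fibroblast genes at -0.38 (-1.22 to 0.34) and -0.75 (-1.59 to -0.02), and under vehicle at -0.64 (-1.56 to 0.13) without the deepest nucleus. T cell genes took 470.4 and 364 FPM in B nuclei, against 546 and 246 in the other nuclei, with log2 ratios of -0.22 (-0.72 to 0.24) and 0.57 (0.03 to 1.05). They stood at 2176 and 2045 FPM in nuclei of the T cell rule, and each of the 10 genes had a fragment in some B nucleus. Dendritic cell genes stood at 0.76 (0.43 to 1.06) over both libraries, with 3 of 12 genes at 0 (Itgax, Siglech and Klk1), and at 0.40 (-0.01 to 0.78) without members that met a second rule. Myeloid genes stood at 0.58 (0.10 to 1.01) under sunitinib and 0.02 (-0.51 to 0.51) under vehicle, with 1 of 10 genes at 0 (Fcgr1) and 52 of 76 fragments on Cx3cr1. Another class rule was met by 11 sunitinib and 3 vehicle members. A nucleus can meet several rules. The T cell rule was met by 4 and 1 of them, the dendritic rule by 4 and 1 and the myeloid rule by 0 and 2. The erythroid, cardiomyocyte and mural rules were met by 1, 1 and 1 sunitinib members and by 0 vehicle members. No doublet caller was run. Without these 14 nuclei the other B genes stood at log2 1.67 (1.51 to 1.83), in place of 1.60 (1.45 to 1.75) with them.

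**Figure D4:**
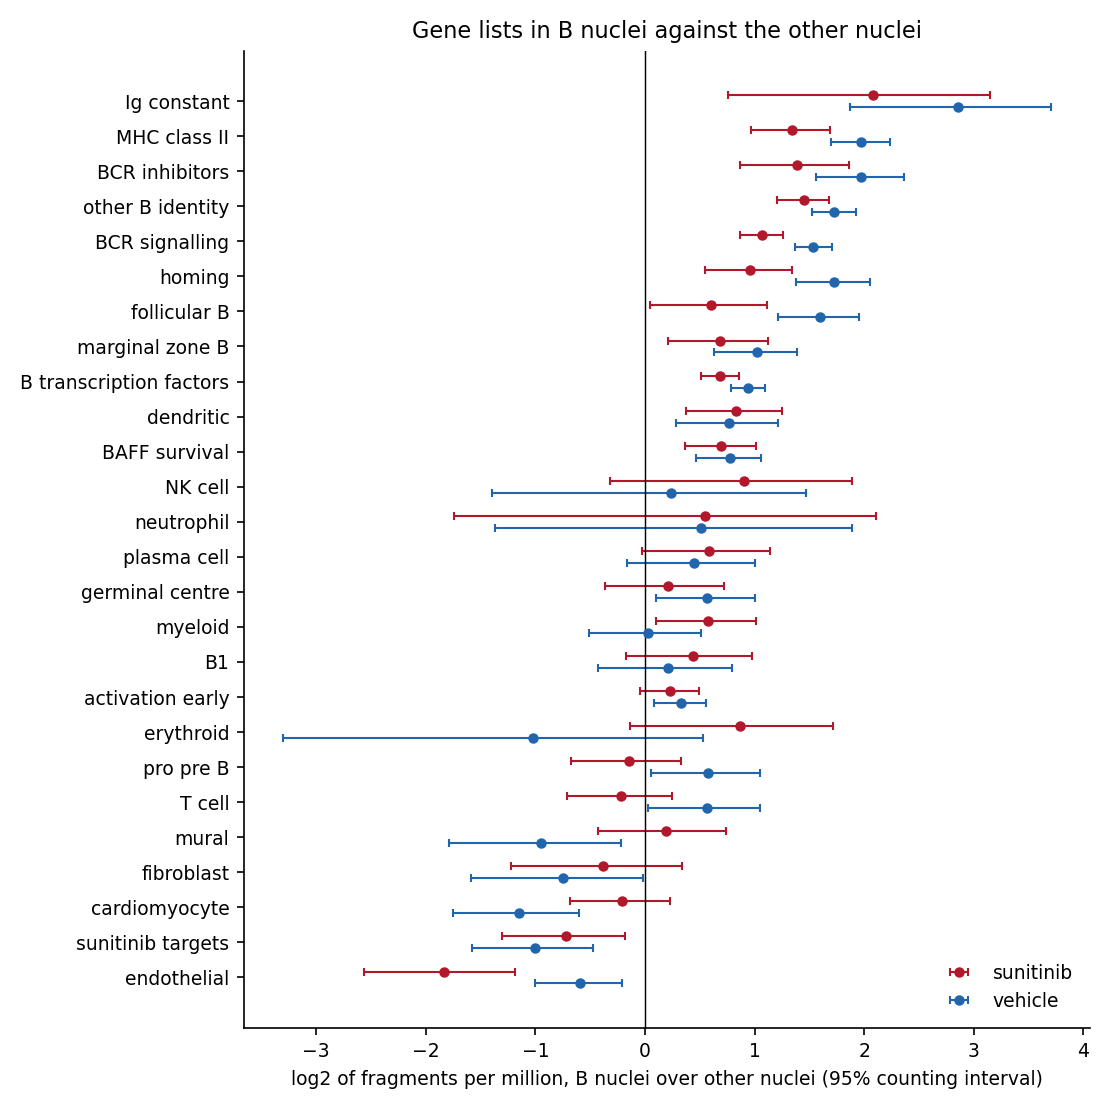
Log2 ratio of FPM in B nuclei over the other nuclei (horizontal) for 26 gene lists, in the sunitinib (red, upper of each pair) and vehicle (blue) libraries, with 95% counting intervals. Lists of immunoglobulin constant, MHC class II, B cell receptor and other B genes lie above 0 in both libraries, and endothelial genes and the kinases that sunitinib blocks lie below 0 in both.

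Among 575 protein-coding genes with 30 fragments observed or expected in B nuclei, 77 were at least 2-fold higher than in the other nuclei (13.4%) and 72 at least 2-fold lower (12.5%). Without the deepest nucleus these were 50 and 46 of 446. Scaled to fragments within 1 kb of start sites, of which B nuclei held a larger share, 45 were higher and 150 lower of 707. That scaling lowers log2 ratios of FPM in B over other nuclei by 0.16 under sunitinib, 0.30 under vehicle and 0.23 over both. With it, follicular genes stood at 0.44 (-0.12 to 0.95) and myeloid genes at 0.42 (-0.06 to 0.85) under sunitinib, and precursor genes at 0.27 (-0.25 to 0.75) and T cell genes at 0.27 (-0.27 to 0.75) under vehicle. Germinal centre genes stood at 0.18 (-0.18 to 0.51) and plasma cell genes at 0.28 (-0.14 to 0.67) over both, so all 6 of these intervals then include 0. The interval of the heavy chain variable segments under vehicle then lies below 0. A lowering by 0.23 would also place the intervals of both T cell receptor loci over the remaining nuclei below 0. Genes outside the markers and the other B genes are named here where the ratio was at least 2 in each library, so their direction in each library is fixed by that choice. The highest was Tmem163, a vesicular zinc transporter gene, with 235 and 214 FPM in sunitinib and vehicle B nuclei, against 45.4 and 40.1 in the other nuclei (log2 2.39, 1.87 to 2.83). After Pik3ap1 came Plek, which encodes pleckstrin of blood cells (2.25, 1.66 to 2.75), and Cytip, a regulator of lymphocyte adhesion (2.14, 1.68 to 2.54). The sorting receptor gene Sorl1 (2.10, 1.68 to 2.47) and the coronin gene Coro2a (2.08, 1.48 to 2.58) followed. Below Plcg2 lay Map4k1, a kinase that restrains lymphocyte receptor signalling (1.89, 1.29 to 2.38), Xylt1, a xylosyltransferase of proteoglycan synthesis (1.87, 1.56 to 2.15), and Rhoh, a GTPase of blood cells (1.87, 1.27 to 2.37). Pxk (1.79, 1.23 to 2.26) and March1, a ubiquitin ligase that takes MHC class II off the surface (1.78, 1.32 to 2.18), completed the 12. Fragments of single nuclei weighed on some of them. Of the sunitinib fragments, 6 of 19 on Tmem163, 6 of 16 on Pik3ap1, 5 of 12 on Pxk and 8 of 25 on March1 came from 1 nucleus. Of the vehicle fragments, 8 of 20 on Tmem163, 7 of 22 on Cytip, 19 of 64 on Xylt1 and 10 of 22 on Pxk did.

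Windows of 1 kb were scanned as well, and those named here were picked after their values were seen. Of 1011 windows open in at least 7 B nuclei, 30 lay outside the marker genes and had at least 5 times the share of the other nuclei. A window could enter only by being open in B nuclei, so the direction of these 30 is fixed by the choice. No matching count was made for another set of nuclei, so their number is a description. The highest ratio lay inside Tmem163 (chr1:127514001-127515000), open in 3 sunitinib and 4 vehicle B nuclei and in 5 other nuclei. A window 78777 bases from the nearest start site, that of Fam43a (chr16:30678001-30679000), was open in 4 sunitinib and 5 vehicle B nuclei and in 12 other nuclei. One near Mpeg1, a pore-forming protein gene of phagocytes and B cells (chr19:12457001-12458000), was open in 3 sunitinib and 5 vehicle B nuclei and in 17 other nuclei. One near Syk, the kinase that starts B cell receptor signalling (chr13:52572001-52573000), was open in 1 sunitinib and 6 vehicle B nuclei and in 35 other nuclei. Inside Irf4 (chr13:30761001-30762000) a window was open in 6 sunitinib and 1 vehicle B nuclei and in 50 other nuclei. The windows of Syk and Irf4 were not next in rank. Windows inside Ctsh, Bend5 and Mtss1 had higher ratios than both, and one inside Pifo had a higher ratio than that of Irf4.

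Between the treatments, 424 genes had enough fragments in B nuclei, of which 20 were at least 2-fold higher (4.72%) and 15 at least 2-fold lower (3.54%) under sunitinib than under vehicle. Their median log2 ratio was 0.03, with the interval above 0 for 19 and below 0 for 21. Scaled to fragments within 1 kb of start sites, 25 were higher and 12 lower. The genes named are the extremes, at low counts. Svil, which encodes the actin-binding protein supervillin, had 34 fragments in 11 sunitinib nuclei and 6 in 5 vehicle nuclei (log2 2.62, 1.44 to 4.25), with 16 of the 34 in 1 nucleus. Gm42906 had 30 and 8 (log2 2.05, 0.96 to 3.45), with 14 of the 30 in 1 nucleus. The sodium-proton exchanger gene Slc9a9 (1.86, 0.66 to 3.39), Prrc2b (1.61, 0.45 to 3.04) and the exchange factor gene Dock9 (1.51, 0.40 to 2.86) came next. The zinc finger gene Hivep3 (1.37, 0.45 to 2.42), the chromatin protein gene Hmgb1 (1.31, 0.21 to 2.59) and the endocytic scaffold gene Itsn1 (1.24, 0.13 to 2.53) followed, Itsn1 with an interval that includes 0 without the deepest vehicle nucleus (1.08, -0.07 to 2.43). At the low end, the myosin gene Myo1e had 11 fragments in 7 sunitinib nuclei and 40 in 20 vehicle nuclei (log2 -1.61, -2.77 to -0.66). Litaf, an endosomal protein gene, had 10 in 10 and 34 in 16 (log2 -1.51, -2.74 to -0.51). Vmp1, an autophagy gene (-1.44, -2.97 to -0.24), the phosphodiesterase gene Pde3b (-1.38, -2.79 to -0.24) and Tcf12, an E-protein factor gene (-1.15, -2.34 to -0.15), were low as well. Of the 23 vehicle fragments on Vmp1, 7 came from 1 nucleus, and without the deepest nucleus its interval includes 0 (-1.24, -2.82 to 0.07). Gm42416, Gm37388 and Gm37013, whose windows overlap each other and can share fragments, had 10, 9 and 9 sunitinib fragments and 27, 24 and 24 vehicle fragments. Without the deepest nucleus the intervals of Gm37388 and Gm37013 include 0 (-1.14, -2.51 to 0.04 for each).

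Of the 27 gene lists, 3 had an interval above 0 and 4 an interval below 0 in sunitinib over vehicle B nuclei. MHC class II genes stood at log2 -0.62 (-1.07 to -0.18), follicular genes at -0.84 (-1.51 to -0.20) and genes of receptor signalling at -0.32 (-0.58 to -0.06). Without members that met a second class rule these were -0.37 (-0.87 to 0.10), -0.71 (-1.48 to 0.02) and -0.18 (-0.47 to 0.10), with intervals that include 0. Without the deepest vehicle nucleus they were -0.53 (-1.0 to -0.05), -0.61 (-1.32 to 0.09) and -0.22 (-0.50 to 0.06), so of these 3 lists the interval stayed below 0 for MHC class II genes alone. Scaled to fragments within 1 kb of start sites, receptor signalling stood at -0.23 (-0.49 to 0.03). H2-Aa, a class II alpha chain gene, had 2 sunitinib and 9 vehicle fragments, Cd74, the invariant chain gene, 5 and 13, and Ciita 11 and 14. Other members of the list stood the other way, Cd86 with 11 and 9 (log2 0.48, -0.91 to 1.95) and H2-DMa with 12 and 11 (log2 0.33, -0.97 to 1.66), and these intervals include 0. The other B genes stood at -0.25 (-0.56 to 0.05). In the nuclei outside the B class MHC class II genes stood at 0.01 (-0.06 to 0.08), and the difference between B and other nuclei in this ratio was not tested. The kappa locus stood at -0.67 (-1.20 to -0.17), the lambda locus at -0.74 (-1.78 to 0.24) and the heavy chain variable segments at 0.91 (0.05 to 1.82). Markers of other cells moved with the library as well. Endothelial genes stood at -1.32 (-2.16 to -0.55), cardiomyocyte genes at 0.85 (0.11 to 1.60), mural genes at 1.0 (0.03 to 2.02) and erythroid genes at 2.08 (0.16 to 4.56), the last with 11 and 3 fragments. Mural genes stood at 0.60 (-0.66 to 1.85) without members of a second class and at 0.90 (-0.11 to 1.98) without the deepest nucleus, with intervals that include 0. Myeloid genes stood at 0.51 (-0.17 to 1.21), and at 1.09 (0.27 to 1.92) without members of a second class. Their part in the values of the B cell lists was not tested.

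**Figure D5:**
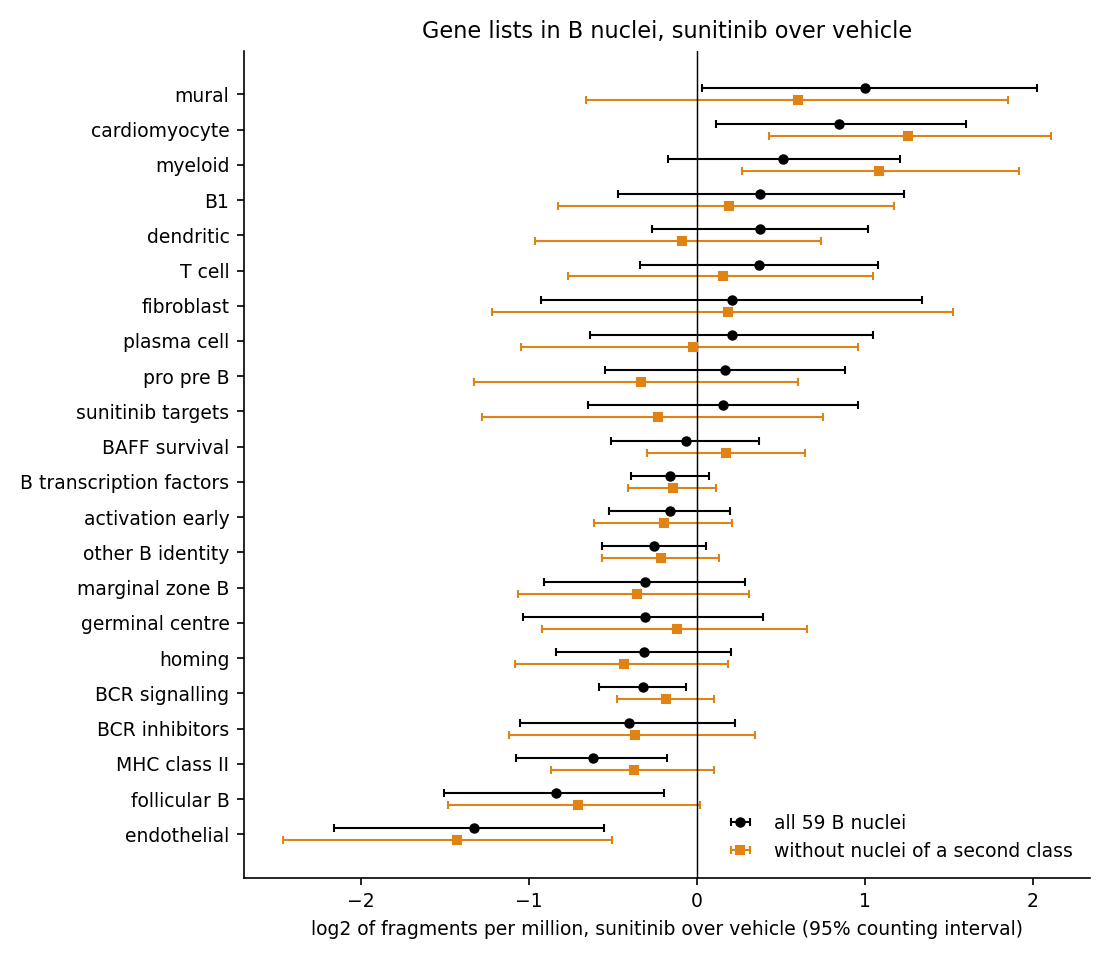
Log2 ratio of FPM in B nuclei, sunitinib over vehicle (horizontal), for 22 gene lists, with all 59 B nuclei (black) and without the 14 that met a second class rule (orange); bars are 95% counting intervals. Follicular, MHC class II and receptor signalling genes lie below 0 with all nuclei and their intervals reach 0 without the 14, while endothelial genes lie below 0 in both.

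The receptor kinases that sunitinib is known to block took 347 and 311 FPM in sunitinib and vehicle B nuclei, against 570.4 and 622 in the other nuclei. The log2 ratios of the 9 genes together were -0.72 (-1.31 to -0.19) and -1.0 (-1.58 to -0.48). Flt1 and Kdr, receptors for VEGF in endothelium, had 1 and 1 sunitinib fragments and 7 and 4 vehicle fragments, and over both libraries their intervals lay below 0, as did that of Kit, though not without the deepest nucleus (-1.47, -4.83 to 0.07). Flt3, a receptor of lymphoid and dendritic progenitors, had 9 and 9 fragments and was the 1 gene of the list with an interval above 0 (log2 1.23, 0.43 to 1.86). Csf1r, Pdgfrb and Flt4 had 4, 4 and 4 fragments under sunitinib and 0, 0 and 0 under vehicle. For each of them the interval of sunitinib over vehicle starts at log2 -0.39 and so includes 0. The 9 genes together stood at 0.16 (-0.64 to 0.96) in sunitinib over vehicle B nuclei, also with 0 inside. Piezo1, the channel that Yoda1 opens, had 19 fragments in 14 sunitinib nuclei and 15 in 15 vehicle nuclei, with log2 ratios of sunitinib over vehicle (0.54, -0.50 to 1.63) and of B over other nuclei (0.61, 0.05 to 1.07). Scaled to fragments within 1 kb of start sites, the interval of the ratio over other nuclei includes 0.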

How the data were processed

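Nuclei of the sunitinib and vehicle libraries were analysed from the deposited ATAC fragment files, made with cellranger-arc 2.0.0 on mm10 per the file headers. Each line is 1 unique fragment of 1 barcode with its count of read pairs, as deposited by the authors (210143978 read pairs under sunitinib and 148947808 under vehicle). Cell Ranger and Signac stand in the submitters' processing notes. Fragments were counted over gene bodies plus 2 kb upstream (GENCODE M21). Start site enrichment compared fragment ends within 50 bases of 21740 protein-coding starts with those 1900 to 2000 bases away. FPM are fragments per 1000000 fragments of the same nuclei. Ratios carry conditional exact 95% intervals, with 0.5 added to each count for single genes, and shares carry Clopper-Pearson intervals. A gene was compared between treatments with at least 30 fragments in B nuclei and at least 10 expected in each library. Named genes are the markers, the other B genes, the 12 highest ratios of B over other nuclei, the 8 highest and 8 lowest of sunitinib over vehicle with an interval that excludes 0, up to 4 members per list with most fragments, the kinases and Piezo1. Further members, in the stage, MHC class II, factor and homing lists, and all 1 kb windows were named after their values were seen. The members and all 27 lists (277 genes, 1 not annotated) were chosen with earlier results of these data known. Promoter fragments were counted once where windows overlap. In lists a fragment on 2 overlapping genes counts for each (H2-DMb1 with H2-DMb2, Cd3d with Cd3g). Values of some single genes are not reported here. The intervals were tested on simulated data, and the outcome is not given here. The tools were python 3.11.15, numpy 2.4.6, scipy 1.17.1, pandas 2.3.3 and matplotlib 3.10.9.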

Additional observations from a re-analysis of the deposited data

How the results depend on the processing

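With at least 5 marker fragments the B share was 0.259% under sunitinib and 0.297% under vehicle, with a share of at least 10 times 0.259% and 0.408%, and after thinning each nucleus to 1000 fragments 0.233% and 0.334%. Without members of a second class it was 0.467% under sunitinib. The log2 ratio of the other B genes over other nuclei was, within 1 kb of start sites, 1.83 under sunitinib, 2.40 under vehicle and 2.11 over both. Without Ebf1, a choice made after seeing the data, it was 1.80, 2.04 and 1.89. From fragments under 150 bp it was 1.20 under sunitinib and 1.42 over both, and with at least 5 marker fragments 1.87 and 1.84. It stayed above 0 in all of these.

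Counts of genes depend on how many genes reach the minimum. Of 575 genes, 77 were 2-fold higher and 72 lower in B nuclei. These were 42 and 30 of 325 genes without the 5% of B nuclei with most fragments, 6 and 1 of 24 from fragments under 150 bp, 29 and 3 of 86 with at least 5 marker fragments, 50 and 46 of 446 without the deepest vehicle nucleus, and 45 and 150 of 707 scaled to fragments within 1 kb of start sites. Without members of a second class 42 of 353 were lower. Of 424 genes, 20 were 2-fold higher and 15 lower under sunitinib. These were 3 and 9 of 258 without members of a second class, 1 and 2 of 18 from fragments under 150 bp, 5 and 2 of 73 with at least 5 marker fragments, 1 and 2 of 61 at a minimum of 60 fragments, and 3228 and 3641 of 16110 at a minimum of 1. Without the 5% of nuclei with most fragments 12 of 239 were higher. Within 1 kb of start sites 1 gene reached the minimum in each comparison, so the counts of 0 and 0 there carry no information. The median of the transcription factor list, sunitinib over vehicle, was -0.52 without those 5% and 0.22 with at least 5 marker fragments, against -0.11. Promoters with PU.1 letters stood at 0.24 from fragments under 150 bp, against 0.13. For the other changes in this paragraph the cause was not tested.

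No paired analysis was possible because each group is 1 library. A planned grouping of distal windows by motif and its alternatives were not run, since no genome sequence was used here. With few nuclei and counts, ratios of single genes are imprecise.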
